A study of Mus musculus with 19 samples.

Results

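The genes described here encode the Slc25 family, the mitochondrial carriers that move metabolites, nucleotides and cofactors across the inner mitochondrial membrane. The platform annotation gave 33 genes whose symbol starts with Slc25a, on 43 probes. A gene was taken as measured where 5 or more arrays detected a probe of it at p under 0.05, and 29 of the 33 genes passed, among 10831 genes and unnamed probes that passed in all. For each gene the probe with the highest mean was read. Slc25a14, Slc25a35, Slc25a36 and Slc25a54 were left out. Of these, Slc25a36 came nearest with detection on 4 arrays, while Slc25a24 was just inside with detection on 5 arrays.

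Liver RNA of 19 mice aged 10 months was hybridised to Illumina BeadChips, arrays with a single colour that read biotin-labelled RNA with bead-bound probes, with 1 array for each animal ID. The livers came from 5 Mat1a knockout (KO) mice that received S-adenosylmethionine (SAMe), 6 KO mice that received placebo and 8 wild-type (WT) mice that received placebo, and treatment lasted 8 weeks. Mat1a encodes the liver enzyme that makes SAMe, the main methyl donor of the cell. No SAMe-treated WT mice were analysed here, and the sources used here do not state the sex or strain of the mice or how the Mat1a allele was made. All values below are log2 intensities after background correction and quantile normalization, and changes are differences of group means on that scale. A gene was called changed where limma gave a Benjamini-Hochberg adjusted p under 0.05 over all 10831 genes.

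Slc25 carriers share a fold of repeated membrane-spanning segments, are encoded in the nucleus, and reach the inner membrane through the outer membrane pore, the small chaperones of the intermembrane space and the inner membrane insertion complex. Most exchange a metabolite on one side for another on the other side, so they connect urea synthesis, fatty acid oxidation, gluconeogenesis and ATP supply in liver to the cytosol. Slc25a26 is the carrier of SAMe itself: it brings SAMe made in the cytosol into mitochondria in exchange for S-adenosylhomocysteine.

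Mat1a averaged 9.64 ± 0.12 in KO SAMe livers, 9.52 ± 0.31 in KO placebo livers and 12.12 ± 0.14 in WT placebo livers (SD, n = 5, 6 and 8). It was lower in KO SAMe and in KO placebo livers than in WT livers by limma (log2 change -2.47, adjusted p = 1.32e-12, and -2.59, adjusted p = 2.64e-13), and KO SAMe did not pass the threshold against KO placebo (0.12, adjusted p = 0.566). The sources used here do not state whether the Mat1a probe lies in the deleted part. Between 25.5% and 31.8% of the probes were detected per array, and arrays of 1 group correlated at 0.9659 to 0.9904. Precision is limited by how many arrays each group has.

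The arrays formed 2 sets by their median raw signal, and the labels do not say what sets them apart. The high-background set, with medians of 93.6 to 99.97, held KO placebo replicates 1 to 4 and WT replicate 1. The low-background set, with medians of 75.1 to 85.8, held all 5 KO SAMe arrays, KO placebo replicates 5 and 6 and WT replicates 2 to 8. Within KO placebo the sets follow the letters of the animal IDs, J in replicates 1 to 4 and G in replicates 5 and 6. Set and ID letter can therefore not be told apart in that group. The changes were therefore also fitted on the 14 low-background arrays alone, where 2 KO placebo arrays remain, and with the set as a block, and the value, or for a list the count that stayed called, is given where a call ended. The high-background set held 1 WT array and no KO SAMe array, so no value within it is given.

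Of the 29 measured carriers, 15 were called in KO placebo against WT placebo livers, which is 51.7% of the carriers beside 40.2% of all genes tested. Of these, 10 were higher and 5 lower, beside 19.8% and 20.4% of all genes, and 10 were called with an absolute log2 change of at least 0.5, beside 23.2%. The median change of the carriers was -0.031, beside 0.0076 over all genes, and their median absolute change was 0.27, beside 0.22. In 7 carriers the KO placebo and WT placebo arrays did not overlap, a pattern that 16.6% of all genes showed. With KO SAMe against KO placebo, 6 carriers were called (20.7%, beside 18.5% of all genes), 2 higher and 4 lower (10.8% and 7.69% of all genes) and 3 with a change of at least 0.5 (10.2%), and the arrays of 2 carriers did not overlap (8.97% of all genes). With KO SAMe against WT placebo, 8 carriers were called (27.6%, beside 17.6% of all genes), 5 higher and 3 lower (9.49% and 8.09%) and 6 with a change of at least 0.5 (9.87%), and again 2 had arrays that did not overlap (6.16% of all genes). Among genes detected on all arrays, 12 of 22 carriers were called in KO placebo against WT placebo livers, beside 56% of all such genes. There KO SAMe against KO placebo gave 5 of 22 carriers (28.7% of such genes), and KO SAMe against WT placebo 5 of 22 (25.2%). The comparisons share arrays (KO placebo, WT placebo or KO SAMe), so that opposite signs in KO placebo against WT and in KO SAMe against KO placebo are not independent of each other.

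The direction of these counts depended on how arrays were scaled. With each array scaled to the median of all its probes, 13 carriers were higher and 1 lower in KO placebo against WT placebo livers, with the median of all genes at 0.18. Of all genes, 46.1% were called with that scaling. With the median of the filtered probes as the scale, 8 carriers were higher and 11 lower, with the median of all genes at -0.20 and 59% of all genes called. For KO SAMe against KO placebo the same scalings gave 0 higher and 13 lower (median of all genes -0.21) and 6 higher and 3 lower (0.16). The scalings called 30.9% and 32.3% of all genes in that comparison. For KO SAMe against WT placebo they gave 3 higher and 2 lower (13% of all genes called), and 4 higher and 4 lower (16.1%). On the low-background arrays, 8 carriers were called in KO placebo against WT placebo livers (7 higher and 1 lower, beside 18.3% of all genes). In KO SAMe against WT placebo livers 6 were called there, beside 14.9% of all genes. In KO SAMe against KO placebo livers 0 carriers and 0.702% of all genes were called on those arrays by limma. Of the carriers, 5 had an unadjusted p under 0.05 in that comparison. With the set as a block, KO SAMe against KO placebo gave 3 carriers, all lower, beside 9.26% of all genes.

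**Figure D1:**
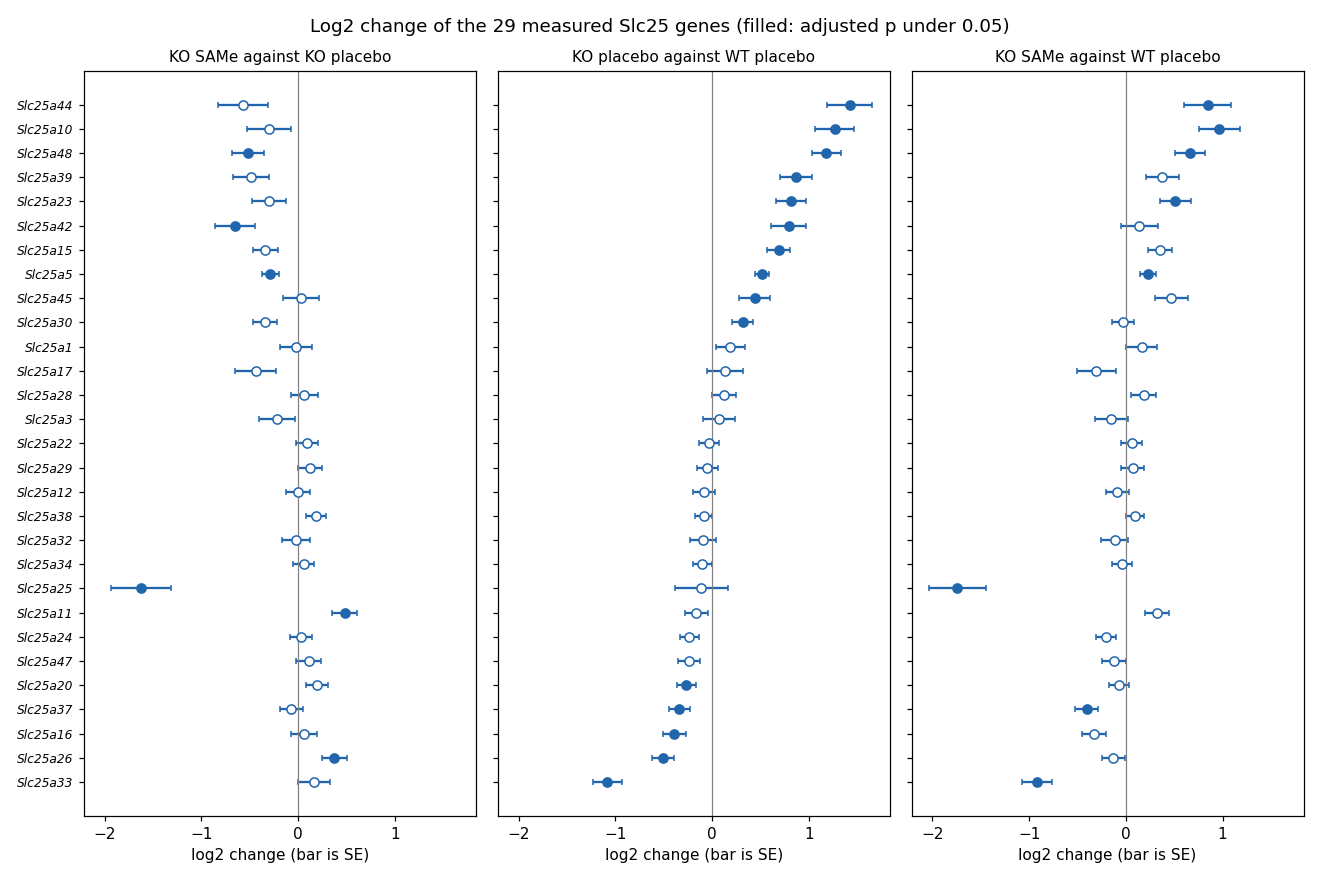
Log2 change of each of the 29 measured Slc25 genes (horizontal axis, bars are the standard error of the fit) in KO SAMe against KO placebo (left), KO placebo against WT placebo (middle) and KO SAMe against WT placebo (right), with genes ordered by the middle panel and filled points for an adjusted p under 0.05. In the middle panel Slc25a44 stands highest at 1.42 and Slc25a33 lowest at -1.08, while Slc25a25 lies near 0 there and at -1.63 and -1.74 in the panels with KO SAMe.

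The carriers of adenine nucleotides held the change that was largest in KO SAMe livers. Slc25a25 belongs to the calcium-regulated carriers that exchange ATP-Mg for phosphate and so set the adenine nucleotide content of the matrix. Its values were 5.77, 7.25, 7.58, 6.66 and 7.09 in the KO SAMe livers. In KO placebo livers the lowest, median and highest values were 7.93, 8.19 and 9.44, and in WT placebo livers 8.25, 8.44 and 9.51. All 5 KO SAMe arrays lay below every KO placebo and every WT placebo array, whereas the KO placebo and WT placebo arrays overlapped. Slc25a25 was 3.09-fold lower in KO SAMe than in KO placebo livers (log2 change -1.63, SE 0.31, 95% interval -2.27 to -0.99, limma adjusted p = 0.00132) and 3.34-fold lower than in WT placebo livers (-1.74, SE 0.29, adjusted p = 0.000282). KO placebo against WT placebo gave -0.11 (95% interval -0.68 to 0.46, adjusted p = 0.791), and this value changed sign without KO placebo replicate 1 or WT replicate 1. The low-background arrays gave a change against KO placebo of -1.20 with adjusted p = 0.0929, and with the set as a block -1.09 with adjusted p = 0.0487. Against WT placebo the low-background arrays gave -1.61 (adjusted p = 0.000159).

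RefSeq lists 3 start sites of Slc25a25, and the sources used here do not state which of them the probe reads. One of the windows held the cAMP response element TGACGTCA, the motif bound by CREB family factors, 150 bases before the start. The window is shown because Slc25a25 had the largest change with SAMe, and the element is in capitals. It runs from 250 bases before to 50 bases after the start on the minus strand, at chr2:32424017-32424316 of GRCm38.p6, as RefSeq gives it.
Slc25a25: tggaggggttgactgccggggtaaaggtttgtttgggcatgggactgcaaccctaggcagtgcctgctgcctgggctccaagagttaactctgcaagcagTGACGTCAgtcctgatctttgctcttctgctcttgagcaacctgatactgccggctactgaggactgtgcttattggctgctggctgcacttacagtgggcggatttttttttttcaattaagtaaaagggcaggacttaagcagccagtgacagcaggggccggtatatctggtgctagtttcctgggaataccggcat
RefSeq gave 31 windows for 25 of the 29 measured carriers. For these windows 5 motifs were searched on both strands, after the values were known. TGACGTCA was in 1 of the 31 windows and in 1.79% of all promoter windows of the same length. Its core TGACG, which overlaps the full element, was in 7 (20.8% of all windows), the E-box CACGTG in 3 (7.15%), the palindromic NRF1 motif in 0 (0.971%) and the CCAAT box CCAAT in 17 (37.4%). A match describes the letters of the window and is no evidence of binding.

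Slc25a23, another ATP-Mg and phosphate carrier of the calcium-regulated group, was higher in KO placebo livers. It read 5.52, 6.12, 5.83, 5.44 and 5.67 in the KO SAMe livers. Its lowest, median and highest values were 5.90, 6.02 and 6.14 in KO placebo livers, against 4.30, 5.26 and 5.68 in WT placebo livers. Every KO placebo array lay above every WT placebo array, and the KO SAMe arrays overlapped with both groups. The gene was 1.76-fold higher in KO placebo than in WT placebo livers (0.82, SE 0.16, limma adjusted p = 0.000225) and also higher in KO SAMe than in WT placebo livers (0.51, SE 0.16, adjusted p = 0.0344). KO SAMe against KO placebo gave -0.30 (95% interval -0.66 to 0.06, adjusted p = 0.249), and was called with arrays scaled to the median of all probes (-0.72, adjusted p = 0.00496). KO placebo against WT placebo stayed called on the low-background arrays (0.68, adjusted p = 0.0139), and KO SAMe against WT placebo did not (0.38, adjusted p = 0.0595, and 0.48, adjusted p = 0.0616, with arrays scaled to the median of all probes). The call of KO SAMe against WT placebo also ended without any of KO SAMe replicates 2, 3 and 5 and WT replicates 3, 5 and 7 (adjusted p = 0.0523 to 0.127). The third carrier of this group, Slc25a24, was detected on 1 of 5 KO SAMe arrays, none of the 6 KO placebo arrays and 4 of 8 WT placebo arrays, so it has only a bound in KO placebo livers. Its measured WT placebo mean was 1.04-fold above the KO placebo bound. Only 4 of the 8 WT placebo arrays detected it, so this value is no firm lower limit. KO placebo against WT placebo was not called by limma (measured means 4.28 and 4.51, adjusted p = 0.0629).

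Slc25a5, an ADP/ATP translocase that sends ATP made in the matrix to the cytosol, was called in all 3 comparisons. Its values were 11.30, 10.98, 11.16, 11.26 and 11.05 in the KO SAMe livers. They ran from 11.36 through a median of 11.42 to 11.52 in KO placebo livers, against 10.77, 10.91 and 11.09 in WT placebo livers. The KO placebo arrays lay above all other arrays, and the KO SAMe arrays overlapped with the WT placebo arrays. Slc25a5 was 1.43-fold higher in KO placebo than in WT placebo livers (0.52, SE 0.07, limma adjusted p = 1.18e-05), 1.22-fold lower in KO SAMe than in KO placebo livers (-0.29, SE 0.08, adjusted p = 0.0207) and 1.17-fold higher in KO SAMe than in WT placebo livers (0.23, SE 0.08, adjusted p = 0.0483). From the low-background arrays the first of these stayed called (0.50, adjusted p = 0.00988), and the other two did not (-0.27, adjusted p = 0.301, and 0.22, adjusted p = 0.107). With the set as a block the change against KO placebo was -0.29 with adjusted p = 0.0769. With arrays scaled to the median of the filtered probes none of the 3 was called, KO placebo against WT placebo giving 0.15 (adjusted p = 0.123), KO SAMe against KO placebo -0.074 (adjusted p = 0.55) and KO SAMe against WT placebo 0.078 (adjusted p = 0.649). Scaling to the median of all probes gave -0.44 against KO placebo (adjusted p = 0.00459) and 0.089 against WT placebo (adjusted p = 0.657). The call against KO placebo also ended without KO placebo replicate 2, KO SAMe replicate 2 or KO SAMe replicate 5 (adjusted p = 0.0515 to 0.0564), and the call against WT placebo without any of KO SAMe replicates 1, 3 and 4 and WT replicates 1, 3, 4, 6 and 7 (0.0623 to 0.118).

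Slc25a33 carries pyrimidine nucleotides, the building blocks of mitochondrial DNA and RNA, into the matrix. It read 7.71, 6.77, 7.15, 7.13 and 7.69 in the KO SAMe livers. The lowest, median and highest values were 6.77, 7.14 and 7.52 in KO placebo livers, against 7.86, 8.16 and 8.50 in WT placebo livers. All 11 KO arrays, with or without SAMe, lay below all 8 WT placebo arrays, and the KO SAMe and KO placebo arrays overlapped. The gene was 1.89-fold lower in KO SAMe than in WT placebo livers (-0.92, SE 0.16, limma adjusted p = 0.000352) and 2.12-fold lower in KO placebo than in WT placebo livers (-1.08, SE 0.15, adjusted p = 6.14e-06). KO SAMe against KO placebo gave 0.16 (95% interval -0.18 to 0.51, adjusted p = 0.552), and this uncalled value was -0.24 with arrays scaled to the median of all probes. On the low-background arrays both changes against WT stayed called, at -0.88 (adjusted p = 0.00106) and -0.93 (adjusted p = 0.00615).

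The promoter of Slc25a33 is shown because it was the carrier with the largest fall in KO placebo livers. It held an E-box, a motif bound by MYC and USF factors, 8 bases before its start, in capitals here. Such an E-box was also present in windows of Slc25a15 and Slc25a1. The window lies on the minus strand at chr4:149774218-149774517 of GRCm38.p6, as RefSeq gives it.
Slc25a33: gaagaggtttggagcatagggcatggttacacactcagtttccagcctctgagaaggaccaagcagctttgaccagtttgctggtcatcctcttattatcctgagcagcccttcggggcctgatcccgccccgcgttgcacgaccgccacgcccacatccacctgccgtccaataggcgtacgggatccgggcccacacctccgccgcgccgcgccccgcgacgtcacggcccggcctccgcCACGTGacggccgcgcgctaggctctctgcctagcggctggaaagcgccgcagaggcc

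Among the carriers of dicarboxylates and citrate, Slc25a10 was called higher than in WT in both KO groups. It exchanges malate and succinate for phosphate, which supplies malate for gluconeogenesis and for citrate export. Its values were 7.96, 8.34, 8.82, 8.71 and 8.39 in the KO SAMe livers. They were 8.38, 8.79 and 8.90 (lowest, median and highest) in KO placebo livers, against 6.28, 7.64 and 7.98 in WT placebo livers. Every KO placebo array lay above every WT placebo array, and 1 KO SAMe array fell within the WT range. Slc25a10 was 1.95-fold higher in KO SAMe than in WT placebo livers (0.96, SE 0.21, limma adjusted p = 0.00305) and 2.41-fold higher in KO placebo than in WT placebo livers (1.27, SE 0.20, adjusted p = 3.05e-05). KO SAMe against KO placebo gave -0.30 (95% interval -0.77 to 0.16, adjusted p = 0.388), and was called with arrays scaled to the median of all probes (-0.62, adjusted p = 0.048). Both changes against WT stayed called on the low-background arrays, at 0.79 (adjusted p = 0.00237) and 1.17 (adjusted p = 0.00128). Slc25a1, the citrate carrier, gave 0.19 in KO placebo against WT placebo livers (adjusted p = 0.349), and Slc25a12, an aspartate and glutamate carrier of the malate-aspartate shuttle, gave -0.082 (adjusted p = 0.608). Slc25a11, the oxoglutarate and malate carrier of the same shuttle, averaged 8.17 ± 0.18 in KO SAMe, 7.68 ± 0.21 in KO placebo and 7.85 ± 0.24 in WT placebo livers. It was called higher in KO SAMe than in KO placebo livers (0.48, adjusted p = 0.0128), but its other 2 probes gave -0.0079 and -0.080 in a fit of all probes, and the call ended on the low-background arrays (0.31, adjusted p = 0.394), with the set as a block (0.29, adjusted p = 0.221) and with arrays scaled to the median of all probes (0.092, adjusted p = 0.604).

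The amino acid carriers Slc25a15 and Slc25a44 were both higher in KO placebo livers. Slc25a15 exchanges ornithine for citrulline, the step that joins the mitochondrial and cytosolic parts of the urea cycle. It read 9.69, 8.998, 9.61, 9.66 and 9.29 in the KO SAMe livers. The lowest, median and highest values were 9.41, 9.82 and 10.06 in KO placebo livers, against 8.80, 9.10 and 9.32 in WT placebo livers. The KO placebo arrays lay above all WT placebo arrays, and the KO SAMe arrays spread over both ranges. The change was 1.61-fold in KO placebo against WT placebo livers (0.69, SE 0.12, limma adjusted p = 8.17e-05) and held on the low-background arrays (0.66, adjusted p = 0.0139). A second, dimmer probe of Slc25a15 gave 0.35 (adjusted p = 0.0886 in a fit of all probes). KO SAMe livers did not pass the threshold against KO placebo (-0.34, adjusted p = 0.0816) or against WT placebo (0.35, adjusted p = 0.0585). It passed against KO placebo without KO placebo replicate 1 (-0.42, adjusted p = 0.04) or with arrays scaled to the median of all probes (-0.56, adjusted p = 0.00835). Against WT placebo it passed without KO SAMe replicate 2 (adjusted p = 0.014) or WT replicate 4 (adjusted p = 0.0467).

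Slc25a44 carries branched-chain amino acids into mitochondria. Its values were 6.89, 7.26, 7.38, 7.32 and 7.02 in the KO SAMe livers. In KO placebo livers it ran from 7.34 through a median of 7.85 to 7.97, against 4.82, 6.66 and 6.90 in WT placebo livers. The KO placebo arrays lay above all WT placebo arrays, and the lowest KO SAMe array fell just within the WT range. Slc25a44 was 1.80-fold higher in KO SAMe than in WT placebo livers (0.85, SE 0.24, limma adjusted p = 0.0188) and 2.68-fold higher in KO placebo than in WT placebo livers (1.42, SE 0.23, adjusted p = 4.01e-05). Without KO SAMe replicate 3 the first of these was not called (0.80, adjusted p = 0.0534). The low-background arrays, without the WT array at 4.82, gave 0.63 (adjusted p = 0.00864) and 1.17 (adjusted p = 0.00106). KO SAMe against KO placebo was -0.57 (adjusted p = 0.131) and did not pass the threshold on the low-background arrays either (-0.54, adjusted p = 0.215). It passed with the set as a block (-1.01, adjusted p = 0.0348) and with arrays scaled to the median of all probes (-0.95, adjusted p = 0.0136). The glutamate carrier Slc25a22, the basic amino acid carrier Slc25a29 and the glycine carrier Slc25a38 were called in none of the comparisons, with changes between -0.088 and 0.18, and Slc25a22 and Slc25a29 were each detected on fewer than 10 of the 19 arrays. A dimmer probe of Slc25a38 gave -0.33 in KO placebo against WT placebo livers (adjusted p = 0.0332 in a fit of all probes).

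**Figure D2:**
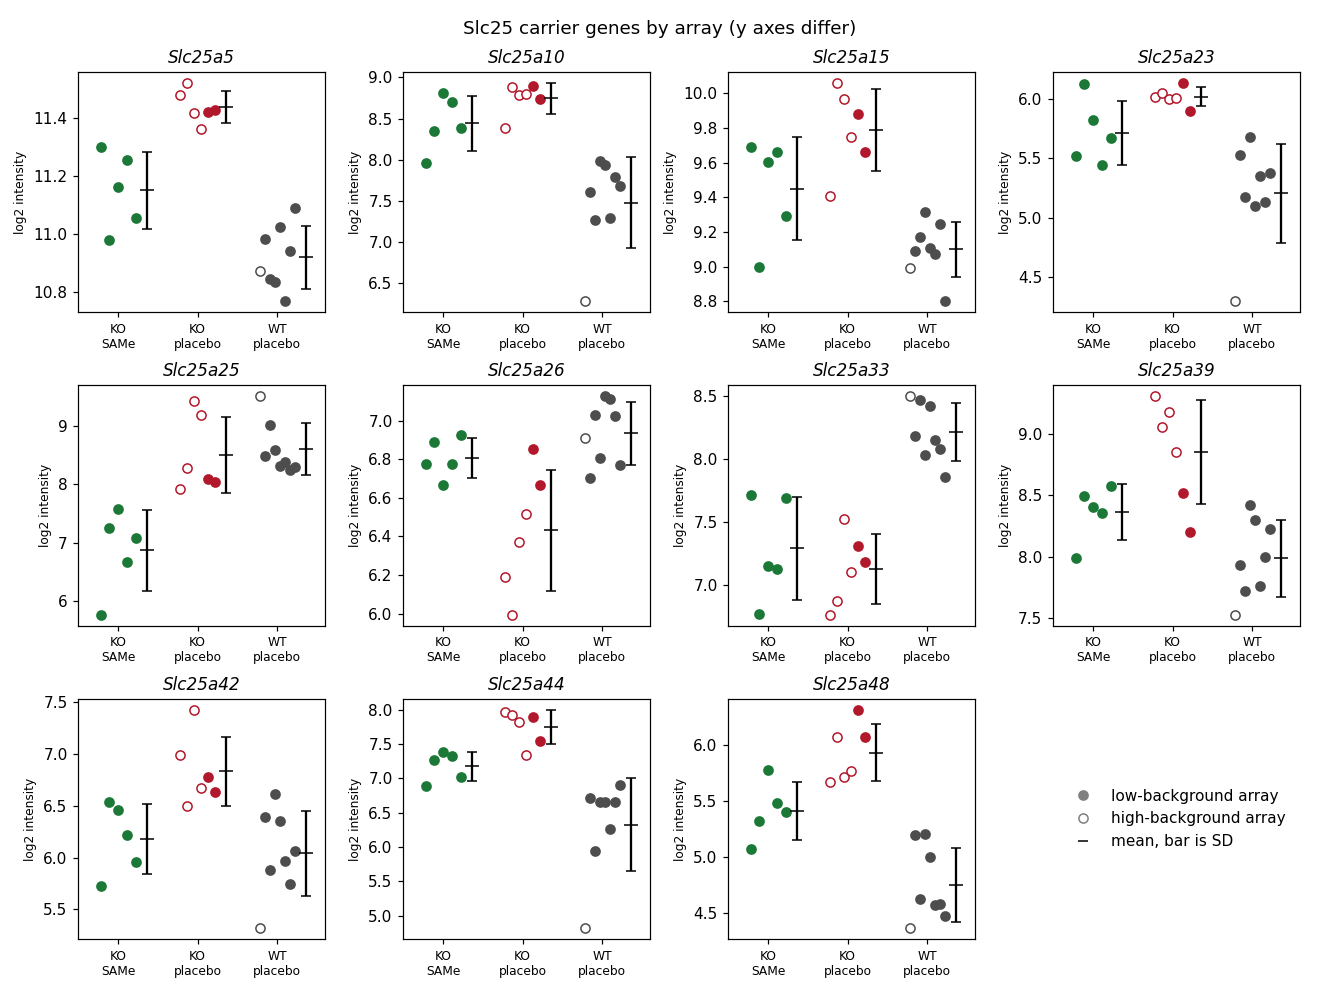
Log2 intensity of the 11 Slc25 genes described by array, with 1 point per array for KO SAMe (5), KO placebo (6) and WT placebo (8), open points for high-background arrays, and the mean with an SD bar beside each group; the vertical axes differ. The KO placebo points lie above all WT placebo points for Slc25a5, Slc25a10, Slc25a15, Slc25a23, Slc25a44 and Slc25a48, and below them for Slc25a33, and the KO SAMe points of Slc25a25 lie below both other groups.

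Slc25a26, the SAMe carrier, was measured on all 19 arrays. It read 6.77, 6.89, 6.67, 6.78 and 6.93 in the KO SAMe livers. The lowest, median and highest values were 5.99, 6.44 and 6.85 in KO placebo livers, against 6.70, 6.97 and 7.13 in WT placebo livers. The KO placebo arrays overlapped with both other groups, and 4 of the 5 KO SAMe arrays lay within the WT range. Across all arrays Slc25a26 was 1.42-fold lower in KO placebo than in WT placebo livers (-0.50, SE 0.11, limma adjusted p = 0.00115) and 1.30-fold higher in KO SAMe than in KO placebo livers (0.37, SE 0.13, adjusted p = 0.0445). KO SAMe against WT placebo gave -0.13 (95% interval -0.38 to 0.12, adjusted p = 0.519).

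The low KO placebo values of Slc25a26 lay in the high-background set. The KO placebo arrays of that set read 6.19, 5.99, 6.37 and 6.52, and the 2 KO placebo arrays of the low-background set read 6.85 and 6.67. From the low-background arrays KO placebo against WT placebo gave -0.18 (adjusted p = 0.411) and KO SAMe against KO placebo 0.047 (adjusted p = 0.926). With the set as a block the values were -0.34 (adjusted p = 0.0369) and 0.17 (adjusted p = 0.503). The call with SAMe ended without any of KO placebo replicates 1 to 4 and KO SAMe replicates 1, 2, 4 and 5 (adjusted p = 0.0522 to 0.122). Scaling to the median of all probes turned that change to -0.062 (adjusted p = 0.668) and left -0.12 in KO placebo against WT placebo livers (adjusted p = 0.278). Scaling to the median of the filtered probes gave 0.31 with SAMe (adjusted p = 0.0645).

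**Figure D3:**
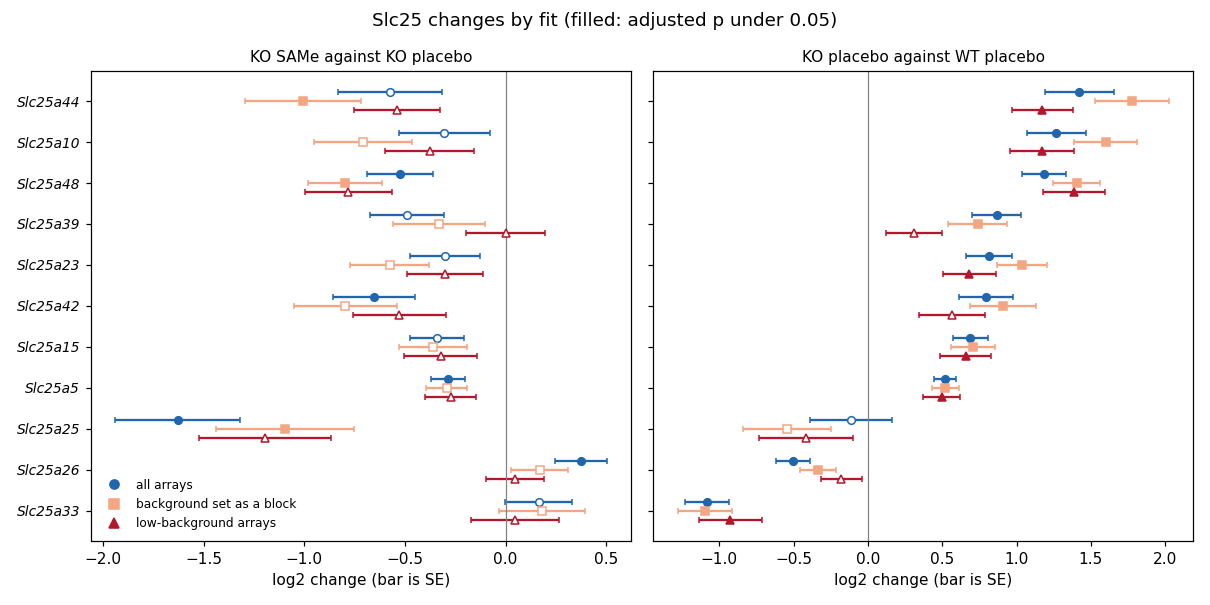
Log2 change (horizontal axis, bars are the standard error) of the same 11 genes in KO SAMe against KO placebo (left) and KO placebo against WT placebo (right), from all 19 arrays (circles), with the background set as a block (squares) and from the 14 low-background arrays (triangles), with filled symbols for an adjusted p under 0.05. In the right panel Slc25a44, Slc25a10, Slc25a48, Slc25a23, Slc25a15, Slc25a5 and Slc25a33 are filled in all 3 fits, whereas on the low-background arrays Slc25a26 (-0.18) and Slc25a39 (0.31) lie nearer to 0 than on all arrays (-0.50 and 0.87).

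Among the carriers of choline and cofactors, Slc25a48 had the largest change in KO placebo livers. It takes choline, a source of methyl groups through betaine, into mitochondria. Its values were 5.07, 5.32, 5.78, 5.48 and 5.41 in the KO SAMe livers. They were 5.68, 5.92 and 6.32 (lowest, median and highest) in KO placebo livers, against 4.37, 4.60 and 5.21 in WT placebo livers, where 6 of 8 arrays detected it. All KO placebo arrays lay above all WT placebo arrays, and the KO SAMe arrays overlapped with each group by a single array. Slc25a48 was 1.44-fold lower in KO SAMe than in KO placebo livers (-0.52, SE 0.17, limma adjusted p = 0.0307), 2.27-fold higher in KO placebo than in WT placebo livers (1.18, SE 0.15, adjusted p = 1.89e-06) and 1.58-fold higher in KO SAMe than in WT placebo livers (0.66, SE 0.16, adjusted p = 0.00524). The low-background arrays gave -0.78 (adjusted p = 0.0965), 1.39 (adjusted p = 0.000343) and 0.60 (adjusted p = 0.0125) for the same comparisons. The change against KO placebo was -0.80 with the set as a block (adjusted p = 0.0144) and -0.92 with arrays scaled to the median of all probes (adjusted p = 0.00072), and its call ended without any of KO placebo replicates 2, 5 and 6 and KO SAMe replicates 1, 2 and 5 (adjusted p = 0.053 to 0.0825).

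Slc25a42 imports coenzyme A, which carries acyl groups in fatty acid oxidation and the citric acid cycle. It read 5.73, 6.54, 6.46, 6.22 and 5.96 in the KO SAMe livers. The lowest, median and highest values were 6.50, 6.73 and 7.43 in KO placebo livers, against 5.32, 6.02 and 6.61 in WT placebo livers. Each pair of groups overlapped, with a single KO SAMe array reaching the KO placebo range. Slc25a42 was 1.57-fold lower in KO SAMe than in KO placebo livers (-0.65, SE 0.20, limma adjusted p = 0.0289) and 1.73-fold higher in KO placebo than in WT placebo livers (0.79, SE 0.18, adjusted p = 0.00126). Neither held on the low-background arrays (-0.53, adjusted p = 0.267, and 0.56, adjusted p = 0.0895). The call against KO placebo also ended with the set as a block (-0.80, adjusted p = 0.053) and without any of KO placebo replicates 1 and 3 and KO SAMe replicates 1, 4 and 5 (adjusted p = 0.0508 to 0.0804). Scaling to the median of all probes gave -1.07 for it (adjusted p = 0.00204). A dim probe of Slc25a42 gave -0.033 in KO placebo against WT placebo livers.

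Slc25a39 brings glutathione, the main thiol antioxidant, into mitochondria. Its values were 7.99, 8.49, 8.40, 8.36 and 8.58 in the KO SAMe livers. They ran from 8.20 through a median of 8.96 to 9.31 in KO placebo livers, against 7.53, 7.97 and 8.42 in WT placebo livers. The lowest KO placebo array lay within the WT range, and the KO SAMe arrays overlapped with both. Slc25a39 was 1.82-fold higher in KO placebo than in WT placebo livers over all arrays (0.87, SE 0.16, limma adjusted p = 0.000213), and KO SAMe against KO placebo gave -0.49 (adjusted p = 0.0685). The latter passed the threshold without KO placebo replicate 5 or 6 (adjusted p = 0.0442 and 0.0146) and with arrays scaled to the median of all probes (-0.79, adjusted p = 0.00898). The 2 low-background KO placebo arrays read 8.52 and 8.20, and on the low-background arrays the values were 0.31 (adjusted p = 0.287) and 0.0013 (adjusted p = 0.999). The folate and FAD carrier Slc25a32 and the peroxisomal cofactor carrier Slc25a17 were called in none of the comparisons, Slc25a17 with -0.44 in KO SAMe against KO placebo livers (adjusted p = 0.163).

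Slc25a20 exchanges acylcarnitines for carnitine and is needed for long-chain fatty acid oxidation. It averaged 10.18 ± 0.18 in KO SAMe, 9.99 ± 0.15 in KO placebo and 10.26 ± 0.19 in WT placebo livers (SD, n = 5, 6 and 8). KO placebo against WT placebo was -0.27 (limma adjusted p = 0.0369), a call that was lost with the set as a block (-0.26, adjusted p = 0.102), on the low-background arrays (-0.24, adjusted p = 0.345), with arrays scaled to the median of all probes (-0.19, adjusted p = 0.226) and without any of KO placebo replicates 2, 3, 4 and 5 and WT replicates 3, 4, 5 and 7 (-0.27 to -0.23, adjusted p = 0.0561 to 0.0881). With the median of the filtered probes as the scale it was -0.57 (adjusted p = 0.00025). Slc25a3 supplies phosphate for ATP synthesis. Its brighter probe gave -0.22 in KO SAMe against KO placebo livers (adjusted p = 0.45) and 0.074 in KO placebo against WT placebo livers (adjusted p = 0.77), whereas its dimmer probe gave -0.99 (adjusted p = 0.0021) and 0.76 (adjusted p = 0.00147) in a fit of all probes. The probes of Slc25a3 therefore disagreed, and its change is uncertain.

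The mitoferrins bring iron into mitochondria for haem and iron-sulfur clusters. Slc25a37, the mitoferrin known from erythroid cells, averaged 5.61 ± 0.33 in KO SAMe, 5.68 ± 0.14 in KO placebo and 6.01 ± 0.13 in WT placebo livers. It was lower in KO SAMe than in WT placebo livers (-0.41, limma adjusted p = 0.0176) and in KO placebo than in WT placebo livers (-0.34, adjusted p = 0.0168), but scaling to the median of all probes turned the second value to 0.072 (adjusted p = 0.712), and it was not called on the low-background arrays (-0.40, adjusted p = 0.109). The first was not called without KO SAMe replicate 4 (-0.29, adjusted p = 0.0695) or with that scaling (-0.40, adjusted p = 0.093). Of 9 erythroid markers 2 passed the detection filter, Hba-a1 and Alas2, and the log2 of their summed level ranged from 10.0 to 11.7 in KO SAMe, from 10.4 to 11.8 in KO placebo and from 10.3 to 12.5 in WT placebo livers. Hba-a1 was lower in KO placebo than in WT placebo livers by 0.89 on the log2 scale without passing the threshold (adjusted p = 0.0654). Alas2, the enzyme that starts haem synthesis in erythroid cells, went the other way (0.15, adjusted p = 0.458), and with the set as a block it was called higher in KO placebo than in WT placebo livers (0.42, adjusted p = 0.0244), where Hba-a1 gave -0.26 (adjusted p = 0.645). The part of these markers in the Slc25a37 value was not tested. In liver as a whole, fewer cells of a type and less RNA per cell cannot be told apart. Slc25a28, the mitoferrin of most tissues, was called in none of the comparisons (0.12 in KO placebo against WT placebo livers, adjusted p = 0.491).

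The remaining carriers have less settled roles or dim probes. Slc25a45 was higher in KO placebo than in WT placebo livers (0.44, limma adjusted p = 0.0349, and 0.60 with adjusted p = 0.0306 on the low-background arrays, and 0.72 with adjusted p = 0.00202 with the set as a block), although the call ended without any of KO placebo replicates 2, 3, 5 and 6 and WT replicates 1, 2 and 5 (adjusted p = 0.0535 to 0.0869). Slc25a16 was lower by 0.39 on the log2 scale (adjusted p = 0.0129). It was not called on the low-background arrays (-0.45, adjusted p = 0.112) or with arrays scaled to the median of all probes (-0.068, adjusted p = 0.744). Slc25a30 was detected on 1 of 5 KO SAMe, 4 of 6 KO placebo and 1 of 8 WT placebo arrays, so that it passed the filter mainly through the KO placebo arrays, and its change of 0.32 (adjusted p = 0.0224) was not called on the low-background arrays (0.20, adjusted p = 0.424), with the set as a block (0.29, adjusted p = 0.094), with arrays scaled to the median of the filtered probes (0.09, adjusted p = 0.451) or without KO placebo replicate 1, 2 or 6 (0.0555 to 0.0738). Slc25a30 and Slc25a37 both lie on chromosome 14 with Mat1a, where 246 and 208 of the 286 measured genes lie nearer to Mat1a than they do, and any part of that position was not tested. Slc25a47, expressed mainly in liver, averaged 11.91 ± 0.18 in KO SAMe, 11.80 ± 0.27 in KO placebo and 12.03 ± 0.19 in WT placebo livers and was called in none of the comparisons. Slc25a34, detected on 9 arrays, was not called either.

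Genes that work beside the carriers were taken from lists. Their counts stand beside the shares of all genes, of which 40.2% were called in KO placebo against WT placebo livers (19.8% higher and 20.4% lower) and 18.5% in KO SAMe against KO placebo livers (10.8% higher and 7.69% lower). The lists are short, and nothing particular to a list is read from its count. Of 16 genes for the import of carriers, 10 were measured. In KO placebo against WT placebo livers 5 were lower and none higher, with a median of -0.42. The small chaperones Timm8b (-1.34, limma adjusted p = 8.76e-08), Timm9 (-0.98, adjusted p = 6.98e-07) and Timm10b (-0.61, adjusted p = 1.15e-05), which guide carriers between the membranes, were lower, as were the outer membrane receptor Tomm22 (-1.09, adjusted p = 0.000286) and Timm10 (-0.44, adjusted p = 0.0348). Low-background arrays kept 3 of these calls, Tomm22 (-0.75, adjusted p = 0.0583) and Timm10 (-0.37, adjusted p = 0.184) being lost, and scaling to the median of all probes gave 4 lower and 1 higher. Timm8b averaged 10.05 in KO SAMe, 9.25 in KO placebo and 10.59 in WT placebo livers and was higher in KO SAMe than in KO placebo livers (0.80, adjusted p = 0.000925), as was Timm10b (0.37, adjusted p = 0.0141). Timm8b gave, on the low-background arrays, 0.50 (adjusted p = 0.164), and Timm10b 0.24 (adjusted p = 0.356), while Timm10b was 0.28 with the set as a block (adjusted p = 0.15) and turned to -0.046 with arrays scaled to the median of all probes.

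The enzymes on either side of the malate-aspartate and glycerophosphate shuttles ran the other way. Of 5 measured, 4 were higher and none lower in KO placebo against WT placebo livers, with a median of 0.75: the aminotransferase Got2 (0.79, limma adjusted p = 1.25e-05), the malate dehydrogenases Mdh1 (0.75, adjusted p = 0.000358) and Mdh2 (0.76, adjusted p = 0.00038), and the glycerophosphate dehydrogenase Gpd1 (0.63, adjusted p = 0.00339). Mdh1 was lower in KO SAMe than in KO placebo livers (-0.84, adjusted p = 0.0018), but not on the low-background arrays (-0.75, adjusted p = 0.136). On those arrays 2 of the 4 calls against WT stayed, and Gpd1 (0.46, adjusted p = 0.212) and Mdh2 (0.34, adjusted p = 0.146) were not called. Of 7 measured genes of citrate export and use, citrate synthase Cs (0.83, adjusted p = 3.75e-05), the isocitrate dehydrogenase Idh2 (0.98, adjusted p = 0.000464) and Mdh1 were higher and the malic enzyme Me1 lower (-0.67, adjusted p = 0.000282). Of 9 measured genes of the urea cycle and of ornithine and proline use, Prodh (0.78), Aldh4a1 (0.54) and Oat (0.40), which link proline and ornithine to glutamate, were higher and the glutamate dehydrogenase Glud1 was lower (-0.89, adjusted p = 7.5e-07). Oat was not called with the set as a block (0.29, adjusted p = 0.0903), on the low-background arrays (0.21, adjusted p = 0.445) or with arrays scaled to the median of the filtered probes (0.044, adjusted p = 0.751), and that scaling also ended the call of Aldh4a1 (0.16, adjusted p = 0.133). The urea cycle genes of that list, Cps1, Otc, Ass1, Asl and Arg1, were not called there (adjusted p = 0.0524 for Asl, with -0.60, to 0.562 for Otc). Some were called lower under alternatives. These were Arg1 with the set as a block, Ass1 with arrays scaled to the median of all probes, and Arg1, Asl and Ass1 with the median of the filtered probes. None of them was called on the low-background arrays in KO placebo against WT placebo livers. In KO SAMe against WT placebo livers 1 gene of the list was higher and 2 lower, beside 17.6% of all genes called. The low-background arrays also gave 1 higher and 2 lower for that comparison, beside 14.9% of all genes. The genes called there were Aldh4a1, Asl and Glud1.

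Methylation in mitochondria depends on SAMe brought in by Slc25a26. The list for mitochondrial methylation and SAMe use had 16 measured members, not all of them methyltransferases. In KO placebo against WT placebo livers 5 were lower, the complex I assembly factor Ndufaf5 (-0.55, limma adjusted p = 0.007), the ribosomal RNA methyltransferases Mrm1 (-0.41), Mrm3 (-0.65) and Nsun4 (-0.26) and the Nsun4 partner Mterf4 (-0.36), and the ribosome assembly factor Mettl17 was higher (0.73, adjusted p = 6.11e-06), so that 6 of 16 were called where 40.2% of all genes were. In KO SAMe against KO placebo livers 4 were higher and none lower, Ndufaf5 (0.66, adjusted p = 0.0114), Mrm3 (0.62, adjusted p = 0.00695), Mrm1 (0.40, adjusted p = 0.0172) and Mterf4 (0.32, adjusted p = 0.0446). As for Slc25a26, these counts did not hold on the low-background arrays, where 0 were lower in KO placebo against WT placebo livers and 0 were called in KO SAMe against KO placebo livers by limma, and Mettl17 alone stayed higher. With the set as a block none of the 4 was called in KO SAMe against KO placebo livers (adjusted p = 0.0514 for Ndufaf5 to 0.345 for Mterf4), and Nsun4 (-0.18, adjusted p = 0.115) and Mterf4 (-0.27, adjusted p = 0.0677) were not called in KO placebo against WT placebo livers. Scaling to the median of all probes also ended these 4 calls with SAMe, and it turned Nsun4 to 0.036 in KO placebo against WT placebo livers and Mterf4 to -0.044 in KO SAMe against KO placebo livers. The direction of the counts turned with that scaling. It gave 4 higher and 1 lower in KO placebo against WT placebo livers, and 0 higher and 3 lower in KO SAMe against KO placebo livers. The median of the filtered probes as the scale gave 1 higher and 7 lower, and 6 higher and 0 lower.

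**Figure D4:**
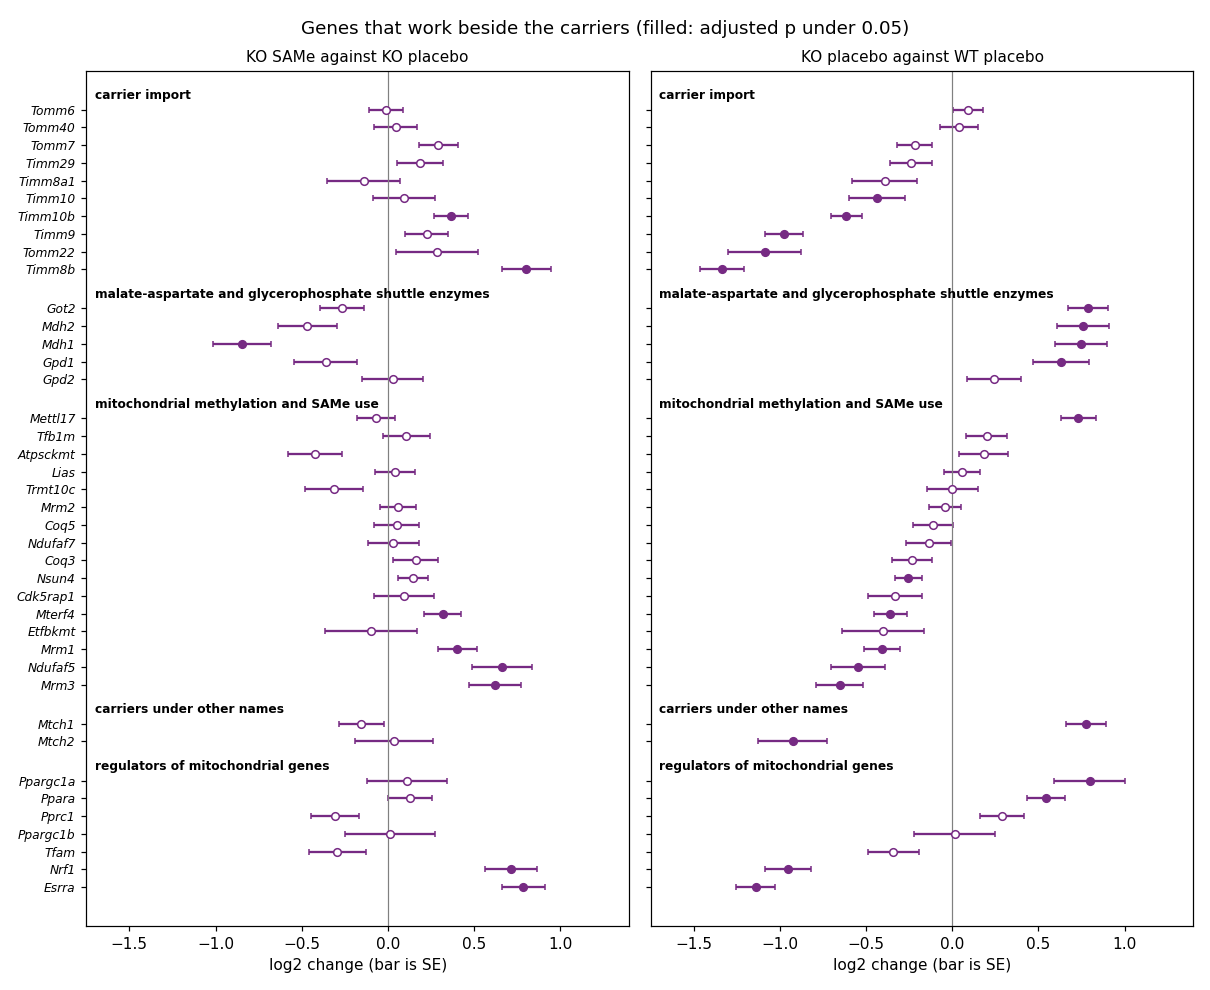
Log2 change (horizontal axis, bars are the standard error) in KO SAMe against KO placebo (left) and KO placebo against WT placebo (right), with filled points for an adjusted p under 0.05. The measured genes are those for carrier import, shuttle enzymes, mitochondrial methylation and SAMe use, genes of the carrier fold under other names and regulators. On the right the import genes reach -1.34 and 4 of the 5 shuttle enzymes lie between 0.63 and 0.79.

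Among genes of the same fold under other names, Mtch1 was higher (0.78, limma adjusted p = 1.51e-05) and Mtch2 lower (-0.93, adjusted p = 0.000785) in KO placebo than in WT placebo livers, and the uncoupling proteins of the list were not among the measured genes. Mtch2 gave, on the low-background arrays, -0.91 (adjusted p = 0.0724). Of 11 measured inner membrane transporters outside the family 3 were higher (Letm1, Sfxn5 and Sfxn2) and 3 lower (Abcb6, Smdt1 and Tmem14c) in KO placebo against WT placebo livers, and 1 of each direction stayed called on the low-background arrays. With the set as a block 4 were higher and 2 lower, and Sfxn2 and Smdt1 were not called. With arrays scaled to the median of all probes 5 were higher and none lower. Of 4 outer membrane channel genes, Vdac2 (0.41, adjusted p = 0.0204) and Vdac1 (0.20, adjusted p = 0.0386) were higher and Tspo lower (-0.37, adjusted p = 0.0163). In KO placebo against WT placebo livers none of these 3 was called on the low-background arrays, and with the set as a block only Tspo was (-0.41, adjusted p = 0.0343). Scaling to the median of all probes ended the calls of Vdac1 and Tspo, and scaling to the median of the filtered probes turned Vdac1 to -0.16. In KO SAMe against WT placebo livers Vdac1 was called higher on the low-background arrays and with the set as a block. Of 4 measured genes of the carnitine shuttle, Cpt2, the acyltransferase that acts just inside the membrane from Slc25a20, was higher in KO placebo than in WT placebo livers (0.69, adjusted p = 0.000881) and lower in KO SAMe than in KO placebo livers (-0.60, adjusted p = 0.0166). The second call ended with the set as a block (-0.51, adjusted p = 0.131), on the low-background arrays (-0.73, adjusted p = 0.119) and with arrays scaled to the median of the filtered probes (-0.46, adjusted p = 0.0655). Of 8 measured genes for mitochondrial iron and haem, Ppox (-0.72, adjusted p = 0.000216) and Bola3 (-0.48, adjusted p = 0.00193) were lower in KO placebo than in WT placebo livers, but not with arrays scaled to the median of all probes (-0.34, adjusted p = 0.0592, and -0.26, adjusted p = 0.0956).

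Of 11 measured genes that mark mitochondrial content, 4 were higher and 1 lower in KO placebo against WT placebo livers, with a median of 0.10, so that 5 of 11 were called where 40.2% of all genes were. On the low-background arrays 2 were higher and 0 lower, with the set as a block 4 higher and 1 lower, and the count was 6 higher and 2 lower with arrays scaled to the median of all probes but 2 higher and 3 lower with the median of the filtered probes as the scale. Among 7 measured regulators of mitochondrial genes, Ppargc1a (0.80, limma adjusted p = 0.00327) and Ppara (0.54, adjusted p = 0.000497) were higher and Nrf1 (-0.95, adjusted p = 7.55e-06) and Esrra (-1.14, adjusted p = 1.23e-07) lower in KO placebo than in WT placebo livers, and all 4 calls remained on the low-background arrays. Esrra (0.79, adjusted p = 0.000444) and Nrf1 (0.71, adjusted p = 0.00249) were higher in KO SAMe than in KO placebo livers, and 0 of the 7 were called there on the low-background arrays (Esrra 0.72, adjusted p = 0.0653, and Nrf1 0.28, adjusted p = 0.445). Nrf1 was also not called with the set as a block (0.46, adjusted p = 0.0799) or with arrays scaled to the median of all probes (0.30, adjusted p = 0.115).

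Markers of hepatocytes were abundant, with 6 of 7 measured. Their log2 summed level was 15.02 to 15.10 in KO SAMe, 15.092 to 15.25 in KO placebo and 14.66 to 15.087 in WT placebo livers. In KO placebo against WT placebo livers 3 of the 6 were higher and 1 lower, beside 40.2% of all genes called. With the set as a block 3 were higher and 0 lower. On the low-background arrays 1 was higher and 0 lower, and with arrays scaled to the median of the filtered probes 1 was higher and 2 lower. Of the other marker lists, adipocyte markers did not pass the filter (0 of 5). The endothelial markers Stab2 (0.74, limma adjusted p = 0.00132) and Pecam1 (0.37, adjusted p = 0.0109) were higher in KO placebo than in WT placebo livers and lower in KO SAMe than in KO placebo livers (-0.62, adjusted p = 0.0277, and -0.41, adjusted p = 0.0253). The other measured members, Clec4g (-0.26, adjusted p = 0.252) and Oit3 (-0.13, adjusted p = 0.534), were not called in KO placebo against WT placebo livers, and the median of the 4 was 0.12. On the low-background arrays neither Stab2 (0.69, adjusted p = 0.0929) nor Pecam1 (0.28, adjusted p = 0.302) was called there, nor with SAMe (-0.56, adjusted p = 0.358, and -0.36, adjusted p = 0.342). With the set as a block the SAMe calls of Stab2 (-0.56, adjusted p = 0.149) and Pecam1 (-0.46, adjusted p = 0.068) ended. In that fit Clec4g was lower in KO SAMe than in KO placebo (-0.70, limma adjusted p = 0.0434) and WT placebo livers (-0.68, adjusted p = 0.00593). The summed level of 4 of 6 endothelial markers was 9.54 to 10.47 in KO SAMe, 10.00 to 10.90 in KO placebo and 10.28 to 10.94 in WT placebo livers. For 4 of 6 stellate cell markers it was 8.79 to 9.49 in KO SAMe, 8.83 to 9.30 in KO placebo and 8.52 to 9.17 in WT placebo livers. For 2 of 5 cholangiocyte markers it was 6.47 to 8.17 in KO SAMe, 6.71 to 7.33 in KO placebo and 5.83 to 6.95 in WT placebo livers. For 5 of 8 macrophage markers it was 8.30 to 9.12 in KO SAMe, 8.28 to 9.01 in KO placebo and 8.58 to 9.24 in WT placebo livers. In KO placebo against WT placebo livers 2 stellate markers and 1 cholangiocyte marker were higher and 1 macrophage marker was lower. The other 4 measured macrophage markers were not called there, and the median of the 5 was 0.19. With arrays scaled to the median of all probes 2 macrophage markers were higher and 0 lower. On the low-background arrays 0 stellate and 0 cholangiocyte markers were called, and 1 macrophage marker was lower. With the set as a block 0 stellate markers were called, 1 cholangiocyte marker was higher and 1 macrophage marker was lower. The part of these cell types in the carrier changes was not tested.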

How the data were processed

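Liver RNA of 19 mice was measured with 1 array per animal ID, and the labels' genotype and treatment set the groups. The authors deposited raw mean bead intensity values of 45281 probes, neither background corrected nor normalized, with detection p-values beside them. They also deposited log2 values of 17592 probes, which were rebuilt from the raw table as the quantile normalized log2 signal of the probes that any array detected at p under 0.01 (largest difference 5.15e-14). The sources used here do not name the software behind these files.

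In R 4.3.3, limma 3.58.1 corrected the intensities by normexp from the detection p-values (offset 16), followed by quantile normalization and log2, which hides a shift of most genes in 1 direction. The filter kept 14295 probes that 5 or more arrays detected at p under 0.05, with 1 probe per gene (8529 named genes and 2302 unnamed probes). All 3 comparisons came from 1 two-sided limma fit over 19 arrays, adjusted over all 10831. The fit was tested on simulated data. The members and lists were chosen with earlier results of these data known. Values by array are given for carriers called with an absolute log2 change of at least 0.5 in a comparison and for Slc25a26. The largest moderated t chose up to 4 named genes per list, and further called members where a count is spelled out, as are the urea cycle genes, were named after their values were seen. The divide between background sets, at a median raw signal of 89.7, was the widest gap between arrays. Promoter windows came from RefSeq, of which 25 of 29 carriers had 1 or more. Alternatives changed the background correction, scaling, filter, probe choice, arrays and model.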

Additional observations from a re-analysis of the deposited data

Results flagged for a closer look

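Among the 11 carriers described by array, 33 groups were looked at for a single array far from the others, and 4 showed one, where chance gives about 1 in 20. Slc25a10 read 8.38 in KO placebo replicate 1, below the other KO placebo arrays at 8.74 to 8.90. In WT placebo replicate 1, Slc25a10 read 6.28 (other WT placebo arrays 7.27 to 7.98), Slc25a23 read 4.30 (5.10 to 5.68) and Slc25a44 read 4.82 (5.95 to 6.90). WT placebo replicate 1 was the WT array of the high-background set. Without that set the changes of these 3 genes in KO placebo against WT placebo livers were 1.17, 0.68 and 1.17 on the log2 scale and stayed called by limma.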

How the results depend on the processing

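For KO placebo against WT placebo the count of called carriers was 8 on the low-background arrays and lay between 12 and 19 under every other alternative, 12 to 16 with each array left out in turn. The share of all genes called moved too. It was 18.3% on the low-background arrays, 59% where the count was 19, and 35.7% to 40.6% with each array left out. Without a detection filter it was 9.02%, with 12 of 33 carriers called. For KO SAMe against KO placebo the count was 13 with arrays scaled to the median of all probes, where 30.9% of all genes were called. Without a detection filter 3 of 33 carriers were called (3.11% of all genes), and with the background set as a block 3 (9.26%). The low-background arrays gave 0 (0.702%). With each array left out the count was 3 to 7 (12.7% to 19.5%). It was 3 without KO placebo replicate 2, KO SAMe replicate 2 or KO SAMe replicate 5. For KO SAMe against WT placebo the count was 5 with arrays scaled to the median of all probes (13% of all genes called) and 5 for genes detected on all arrays (25.2%). With each array left out it was 5 to 9 (11.2% to 19.1%), with 5 without KO SAMe replicate 3. Of 1025 recomputed changes of single carriers, 8 changed sign. Slc25a25 in KO placebo against WT placebo livers, which was not called, became 0.14 with arrays scaled to the median of all probes, 0.096 with array weights, and between -0.30 (without KO placebo replicate 3) and 0.017 (without WT replicate 1) with each array left out, with 0.0022 without KO placebo replicate 1. With arrays scaled to the median of all probes, Slc25a37 became 0.072 in KO placebo against WT placebo livers, and Slc25a26 and Slc25a33 became -0.062 and -0.24 in KO SAMe against KO placebo livers. Slc25a39 became 0.0013 in KO SAMe against KO placebo livers on the low-background arrays. The cause of these shifts was not tested, and some fits also had fewer arrays or genes. Of 29 called changes of single carriers, 10 stayed called in the same direction under every alternative run: Slc25a10, Slc25a33 and Slc25a48 in both KO groups against WT placebo, Slc25a15, Slc25a23 and Slc25a44 in KO placebo against WT placebo, and Slc25a25 in KO SAMe against WT placebo. No paired analysis was possible because animal IDs are not shared between groups and the labels give no replicate numbers.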
